A study of Mus musculus with 1 sample.

Results

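The respiratory chain genes of the mouse pancreas were described here cell class by cell class, with the genes carried by mitochondrial DNA set beside those carried by the nucleus. Members were chosen by gene symbol alone, as the genes for subunits of the 5 complexes of oxidative phosphorylation with the symbol stems mt-Nd, mt-Co, mt-Cytb, mt-Atp, Nduf, Cox4 to Cox8, Uqcr, Atp5 and Sdh, and entries with the suffix -ps were left out, which removed Ndufb1-ps with its 10898 counts. Of 32285 genes listed in the count table, 106 were members, 13 mitochondrially encoded and 93 nuclear encoded. The nuclear set held 36 genes of complex I, 8 Ndufaf genes for factors that assemble complex I, 4 of complex II, 8 of complex III, 20 of complex IV and 17 of complex V. Ndufa4 and Ndufa4l2, named for complex I, were counted with complex IV, where their products are found. The mitochondrial set held 7 genes of complex I, 1 of complex III, 3 of complex IV and 2 of complex V. All 106 had at least 1 count.

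Single cells of Scap f/f mice were sequenced, in which the Scap alleles carry loxP sites but no Cre recombinase is present, so Scap is intact. The pancreata of 5 to 6 mice, 2 weeks old and equally divided between the sexes, were pooled, and dead cells were removed. The Scap Δpanc library of the same experiment was not analysed here. There was therefore 1 library and no replicate, the spread between the pooled animals is unknown, no test was possible, and every interval given is a 95% interval that covers counting error only.

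The respiratory chain moves electrons from NADH, through complex I, and from succinate, through complex II, to complex III and then to complex IV, where oxygen is reduced. Complexes I, III and IV pump protons, and complex V, the ATP synthase, uses the proton gradient to make ATP. Both genomes contribute to complexes I, III, IV and V, while complex II is entirely nuclear encoded. Several small subunits of complex IV exist as tissue isoforms encoded by separate genes. Acinar cells, the secretory cells of the exocrine pancreas, make digestive enzymes in large amounts, so transcripts of those enzymes dilute all others in them.

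Of 11789 barcodes, 10947 (92.9%) held more than 800 and fewer than 100000 UMIs (unique molecular identifiers, each marking 1 captured transcript) and under 15% mitochondrial UMIs. They held 49202966 UMIs, with a median of 2650 per barcode. Cells were assigned by UMIs of marker genes: 9035 barcodes passed 1 gate, 523 none and 1389 several. Of the 521 barcodes that passed the mesothelial gate only 43 passed it alone, so the 440 that passed the mesothelial and fibroblast gates and no other were kept as a class of that name. Each marker list was highest in the class gated on it, as the gates require. The summed endothelial markers held 6548 CPM (UMIs per 1000000 UMIs of the class) in endothelial cells against 170 CPM in mural cells, while the mural markers held 18012 CPM in mural cells and still 1285 CPM in endothelial cells. Digestive enzyme and granule genes took 51.6% of acinar UMIs and 0.801% to 6.37% of those in the other classes, where free RNA in the droplets could not be told apart from expression. In all kept barcodes the members took 1663938 UMIs. The mitochondrial genes held 2.01% of all UMIs and the nuclear genes 1.37%, a ratio of 1.47.

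To show the letters near the start sites of members on which the comparisons turn, 4 promoter windows of 300 bases are given, taken from RefSeq on GRCm38.p6 and running from 250 bases before the start to 50 bases after it. Atp5g1 and Atp5g2 encode the same mature c subunit of the ATP synthase ring and were ordered oppositely in acinar cells and T cells. Cox5a had the highest fold in T cells against fibroblasts among nuclear members with a mean of at least 20 CPM over both classes. Cox8a was among the most raised members in mural cells and had one of the lowest folds in acinar cells. Capitals mark matches to 7 sets of letters searched on both strands, GCGCATGCG (NRF1), CCGGAAG (ETS), AAGGTCA (ERR), ACGTG (HRE), TGGGAA (RBPJ), TCACNCCAC (SRE) and AAGATGGC (YY1). Each window is printed in the direction of its gene.
Atp5g1, minus strand, chr11:96075582-96075881: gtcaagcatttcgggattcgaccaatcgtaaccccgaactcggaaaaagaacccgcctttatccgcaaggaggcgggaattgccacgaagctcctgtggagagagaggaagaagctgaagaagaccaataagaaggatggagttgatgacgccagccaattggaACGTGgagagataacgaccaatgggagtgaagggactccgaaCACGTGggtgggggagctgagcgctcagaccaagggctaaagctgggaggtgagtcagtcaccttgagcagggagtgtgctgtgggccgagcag
Atp5g2, minus strand, chr15:102670998-102671297: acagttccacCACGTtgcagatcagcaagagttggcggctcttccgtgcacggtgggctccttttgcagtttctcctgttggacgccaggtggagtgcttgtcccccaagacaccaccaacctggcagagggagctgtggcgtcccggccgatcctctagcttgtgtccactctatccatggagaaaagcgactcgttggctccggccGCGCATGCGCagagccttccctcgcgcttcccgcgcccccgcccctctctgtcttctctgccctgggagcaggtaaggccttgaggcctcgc
Cox5a, plus strand, chr9:57520982-57521281: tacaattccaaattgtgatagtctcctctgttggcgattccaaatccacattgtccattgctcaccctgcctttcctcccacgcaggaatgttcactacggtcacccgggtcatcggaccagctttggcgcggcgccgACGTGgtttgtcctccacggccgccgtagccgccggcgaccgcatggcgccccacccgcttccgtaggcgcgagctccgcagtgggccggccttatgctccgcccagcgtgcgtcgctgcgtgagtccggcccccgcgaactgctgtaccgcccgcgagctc
Cox8a, minus strand, chr19:7217567-7217866: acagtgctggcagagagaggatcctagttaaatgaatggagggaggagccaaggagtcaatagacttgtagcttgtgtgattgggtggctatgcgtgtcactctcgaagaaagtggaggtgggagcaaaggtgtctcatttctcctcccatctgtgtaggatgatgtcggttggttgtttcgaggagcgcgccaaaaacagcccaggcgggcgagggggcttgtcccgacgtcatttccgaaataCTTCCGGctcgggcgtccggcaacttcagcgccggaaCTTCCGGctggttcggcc

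The Atp5g2 window held 2 overlapping NRF1 matches on opposite strands, and the Cox8a window held 2 ETS matches close to the start. The Atp5g1 window held 3 HRE matches, 2 of them overlapping on opposite strands, and the Cox5a and Atp5g2 windows held 1 each. Windows were found for 75 of the 93 nuclear members. That of Ndufa1 lies past the end of the gene, on the opposite strand, and is counted among the HRE matches of members. The NRF1 letters, named for a regulator of nuclear genes of mitochondria, were in 10 of 75 member windows (13.3%) and in 1.81% of all 27025 windows. The ETS letters, the site class of the regulator GABP, were in 18 (24.0%) against 9.12% of all windows, and the YY1 letters in 9 (12%) against 2.88%. The ERR letters were in 8 (10.7%) against 4.66%, the HRE letters in 17 (22.7%) against 19.7%, and the RBPJ letters in 15 of the 75 against 25.5%. The SRE letters were in 0 of the 75 against 1.22%. A match of such short letters is a description of the window and not a binding site.

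The share of UMIs taken by the 2 sets of genes differed between cell classes, and the order of the classes was not the same for both. With all UMIs in the denominator, the mitochondrial share was highest in duct cells, at 3.51% (3.48% to 3.55%, 47 cells), and in B cells, at 3.44% (3.39% to 3.48%, 358 cells). Mural cells, the smooth muscle cells and pericytes around vessels, followed at 2.98%, Schwann cells at 2.78% and T cells at 2.66%. Fibroblasts, the largest class with 5814 cells, held 1.80% (1.79% to 1.80%), and acinar cells 1.94% (1.94% to 1.95%, 923 cells). Endothelial cells were at 1.79% and endocrine cells at 1.77%, and both intervals overlapped that of fibroblasts. Red blood cells were lowest, at 0.690%.

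The nuclear share was highest in mural cells, at 2.25% (2.21% to 2.30%, 155 cells), and not in the duct and B cells that led the mitochondrial share. T cells held 1.89%, Schwann cells 1.84%, mesothelial and fibroblast cells 1.72%, myeloid cells 1.69%, duct cells 1.62%, B cells 1.60% and fibroblasts 1.44%. Acinar cells held 0.947% (0.941% to 0.952%). When the UMIs of digestive enzyme and granule genes were left out of the denominator, the acinar nuclear share was 1.95% and that of fibroblasts 1.46%, so the order of these 2 classes turned with the denominator. The same step took the mitochondrial share to 4.01% in acinar cells, 3.75% in duct cells and 3.48% in B cells, so acinar cells then led. With an upper limit of 10000 UMIs, which left out most duct cells, and all UMIs in the denominator, the duct mitochondrial share was 6.66%. Red blood cells, which lose nucleus and mitochondria as they mature, held 0.447%, and 74 of the 413 had no UMI of any nuclear member.

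**Figure D1:**
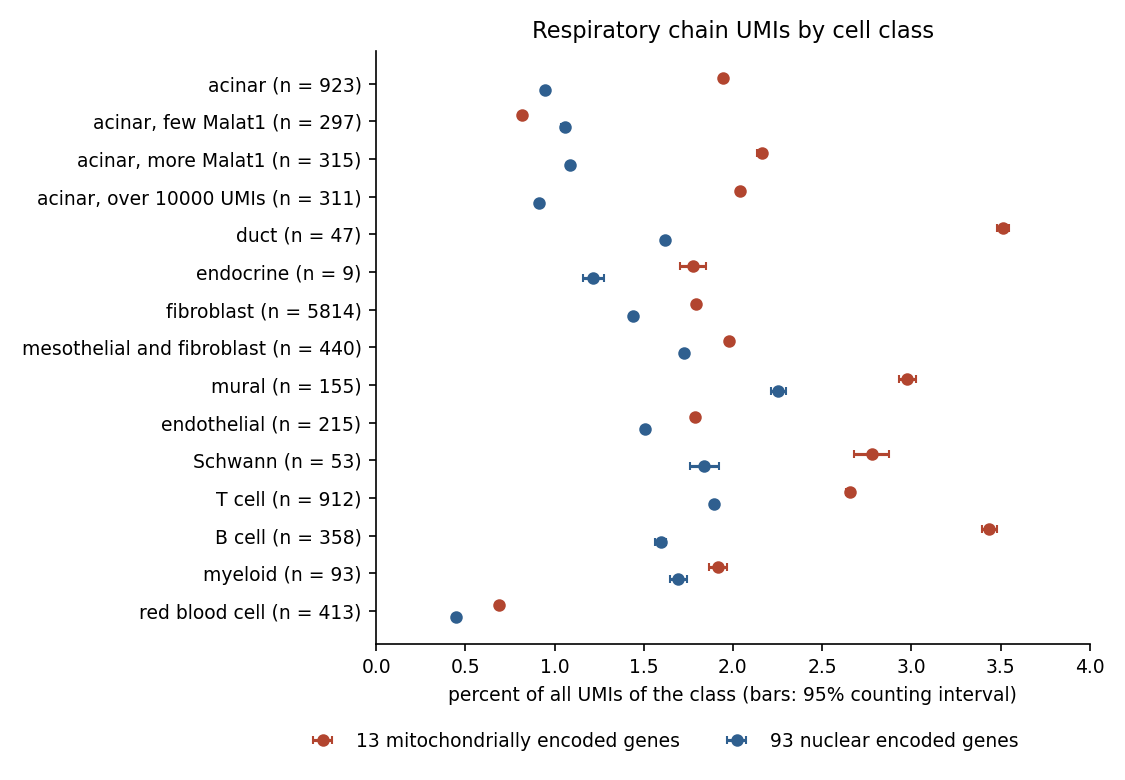
Percent of all UMIs (x axis) of each cell class (y axis) that came from the 13 mitochondrially encoded genes (red) and from the 93 nuclear encoded genes (blue), with 95% counting intervals. With enzyme UMIs in the denominator, duct cells and B cells lead the red points at 3.51% and 3.44%, mural cells lead the blue points at 2.25%, and in acinar barcodes with few Malat1 UMIs alone the red point lies below the blue one.

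The ratio of mitochondrial to nuclear member UMIs does not depend on the denominator, so enzyme transcripts cannot dilute it. It was 1.25 (1.24 to 1.25) in fibroblasts and 2.05 (2.04 to 2.07) in acinar cells, 1.65 times higher (1.63 to 1.66). Duct cells were at 2.17 (2.13 to 2.20) and B cells at 2.16 (2.11 to 2.20), and these 2 values did not differ beyond their counting error. With an upper limit of 10000 UMIs the duct ratio was 3.84, so the closeness of the 2 classes depended on the limit. Duct cells had a median depth of 20880 UMIs, so that limit left out most of them. Below acinar, duct and B cells came red blood cells at 1.55, Schwann cells at 1.51, endocrine cells at 1.46 and T cells at 1.40. Neighbours in this order had overlapping intervals. Mural cells were at 1.32, endothelial cells at 1.19, mesothelial and fibroblast cells at 1.15 and myeloid cells at 1.13, the last 2 with overlapping intervals. The T cell ratio was 1.12 times that of fibroblasts (1.11 to 1.14), and the B cell ratio was 1.54 times that of T cells (1.496 to 1.577). The lymphocyte difference lay on both sides. B cells held the higher mitochondrial share, at 3.44% against 2.66% in T cells, and the lower nuclear share, at 1.60% against 1.89%.

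Acinar barcodes were widely spread. Between the lower and upper quartiles of cells the ratio ran from 0.968 to 1.52 in fibroblasts and from 1.73 to 3.46 in B cells. In acinar cells it ran from 0.701 to 2.31. The acinar median was 1.23, close to the fibroblast median of 1.22, against an acinar ratio of 2.05 from summed UMIs. The ratio was below 1 in 40.1% of acinar cells and 26.9% of fibroblasts. The 311 acinar barcodes with over 10000 UMIs held 179758 of the 219545 acinar mitochondrial UMIs. The acinar class was therefore divided by Malat1, an RNA that is retained in the nucleus. In the 297 acinar barcodes with at most 10000 UMIs and at most 2 Malat1 UMIs the ratio was 0.775 (0.754 to 0.798), below that of every other class. In the 315 with more Malat1 it was 1.99 (1.95 to 2.03), and in the 311 with over 10000 UMIs it was 2.24 (2.22 to 2.26). The acinar excess over fibroblasts thus turned in direction within the class. Without the barcodes over 10000 UMIs the acinar ratio was 1.20 times that of fibroblasts, and without the barcodes with few Malat1 UMIs it was 1.76 times.

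With all UMIs in the denominator, the barcodes with few Malat1 UMIs were low in mitochondrial transcripts and not in nuclear ones. Their mitochondrial share was 0.820% against 2.16% in those with more Malat1, while their nuclear share was 1.06% against 1.09%. Enzyme and granule genes took 64.6% and 50.7% of their UMIs, and the median depth was 3084 and 4168 UMIs. With enzyme and granule UMIs left out, the mitochondrial share was 2.31% with few Malat1 UMIs and 4.38% with more. On that scale the nuclear share was 2.99% (2.93% to 3.04%) and 2.20% (2.17% to 2.24%), so both sides differed. The part of these values in the result was not tested.

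**Figure D2:**
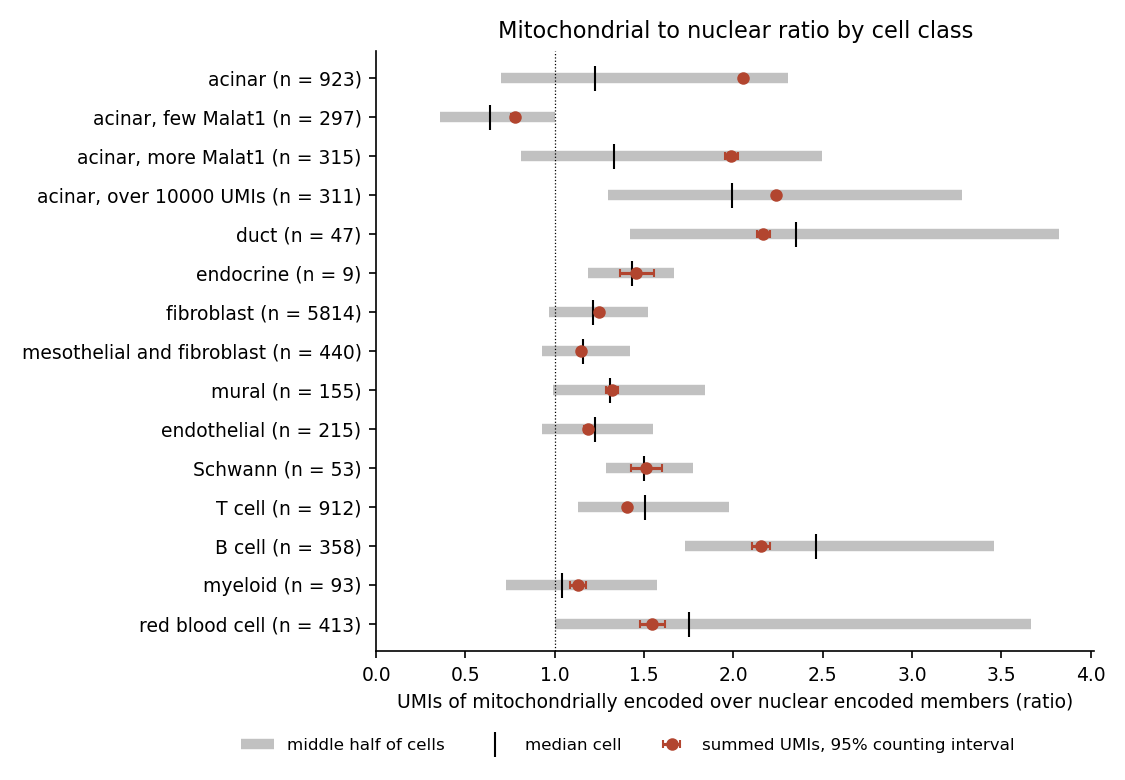
Ratio of mitochondrially encoded to nuclear encoded member UMIs (x axis) in each class, from summed UMIs with 95% counting intervals (red), with the median cell (black tick) and the range between the lower and upper quartiles of cells (grey bar). Acinar barcodes with few Malat1 UMIs lie below 1, at 0.775, and the other 2 acinar groups at 1.99 and 2.24.

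The ratio moved with the Malat1 share of the barcode in 3 of the 4 classes examined. In acinar cells it was 0.676 in 109 barcodes with no Malat1 UMI, 1.65 where Malat1 took up to 0.25% of UMIs, 2.24 up to 0.75% and 3.33 up to 1.5%, and 2.35 in the 18 barcodes above that. In T cells it was 0.877 in 45 barcodes with up to 0.25% and 1.66 in 245 with over 1.5%, and in B cells 1.36 in 13 barcodes and 2.64 in 180 for the same bins. In fibroblasts it lay between 1.17 and 1.27 in all 5 bins. With all UMIs in the denominator, the side that moved differed between the classes. In T cells the nuclear share was 2.87% and 1.44% in those bins and the mitochondrial share 2.51% and 2.39%. In B cells the nuclear share was 2.45% and 1.27% and the mitochondrial share 3.34% and 3.35%. In acinar cells it was mainly the mitochondrial share that moved, from 0.710% with no Malat1 UMI to 2.93% in the bin up to 1.5%. The acinar nuclear share was 1.05% and 0.881% in those bins, where enzyme and granule genes took 65.1% and 38.3% of UMIs. With enzyme and granule UMIs left out, the acinar nuclear share was 3.004% and 1.43%. On that scale it was 2.90% and 1.46% in the T cell bins and 2.47% and 1.29% in the B cell bins. The nuclear share was then lower with more Malat1 in all of these classes, so the contrast depended on the denominator.

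The ratio also moved with depth. From the bin of 800 to 1500 UMIs to that of 3000 to 10000, the ratio went from 1.63 to 1.28 in T cells and from 2.70 to 1.64 in B cells, while in fibroblasts it was 1.21 and 1.25. In acinar cells it had no single direction, with 1.58 in the lowest bin, 1.06 between 1500 and 3000 UMIs, 1.60 up to 10000 and 2.24 above. Classes of unlike depth are therefore compared with this reservation, and the duct cells had a median of 20880 UMIs against 1410 in B cells.

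**Figure D3:**
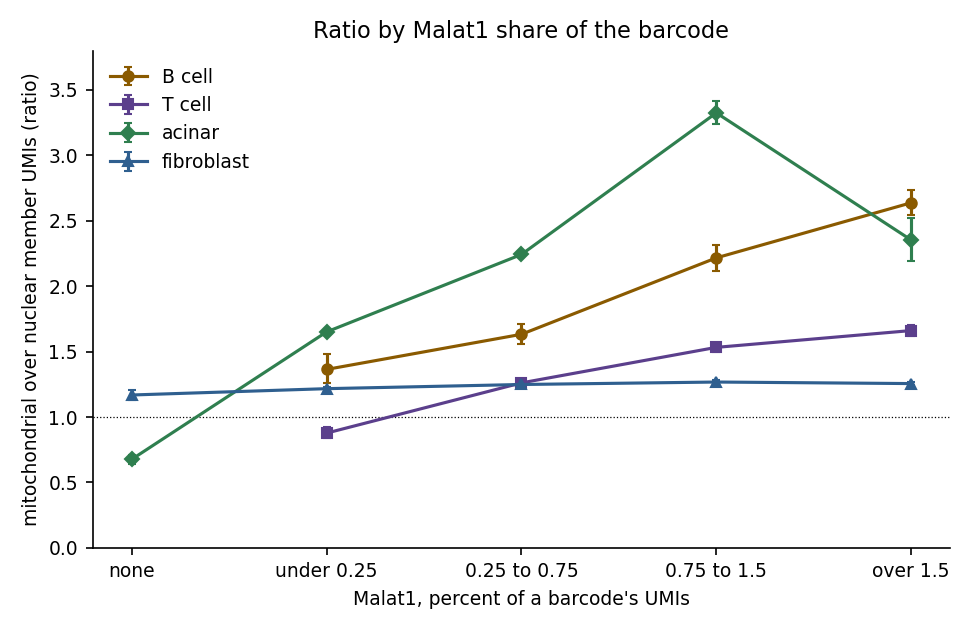
Ratio of mitochondrial to nuclear member UMIs (y axis) by the percent of a barcode's UMIs that came from Malat1 (x axis, 5 bins) in acinar cells, B cells, T cells and fibroblasts, with 95% counting intervals and only for bins of at least 10 barcodes. The ratio is higher with more Malat1 in B cells and T cells and, up to the fourth bin, in acinar cells, and lies between 1.17 and 1.27 in fibroblasts.

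Among the 13 mitochondrial genes, mt-Co3, for the third core subunit of complex IV, set the acinar cells apart. It held 5629 CPM in acinar cells and 3825 CPM in fibroblasts. As a share of the mitochondrial UMIs, which does not depend on the denominator, it was 29.0% (28.8% to 29.2%) in acinar cells and 25.1% (24.7% to 25.5%) in duct cells. In the other classes it lay between 20.3% and 22.8%, with 21.3% in fibroblasts, 21.4% in mural cells, 21.3% in T cells and 21.4% in B cells. The 3 acinar groups were close, at 27.9% with few Malat1 UMIs, 28.3% with more and 29.1% over 10000 UMIs, although their mitochondrial totals differed.

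The other core subunits of complex IV did not follow mt-Co3. mt-Co1, for the catalytic subunit, made up 15.7% of acinar and 19.1% of fibroblast mitochondrial UMIs, and mt-Co2 13.4% and 14.3%. mt-Atp6, for the proton channel subunit of ATP synthase, made up 14.4% in acinar cells, 17.0% in fibroblasts and 19.6% in T cells, and mt-Atp8 1.16%, 1.28% and 1.73%. mt-Cytb, for the only mitochondrially encoded subunit of complex III, made up 8.55% in acinar cells, 9.43% in fibroblasts and 11.04% in mural cells.

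Of the 7 mitochondrial complex I genes, mt-Nd1, mt-Nd4, mt-Nd3 and mt-Nd5 made up 5.47%, 5.59%, 2.63% and 1.16% of the acinar mitochondrial sum, against 5.02%, 4.92%, 2.21% and 1.03% in fibroblasts. mt-Nd2 made up 2.12% and 2.78%. mt-Nd4l was at 0.696% in acinar cells and 1.28% in fibroblasts, but at 1.32% in acinar barcodes with few Malat1 UMIs and 0.601% in those over 10000 UMIs. mt-Nd6, the only one of the 13 transcribed from the light strand of the mitochondrial genome, was at 0.115% (0.101% to 0.130%) in acinar cells and 0.302% (0.284% to 0.320%) in fibroblasts. With all UMIs in the denominator, mt-Nd6 was 2-fold lower in acinar cells than in fibroblasts, at 22.3 CPM against 54.1 CPM. It was the 1 gene of the 13 past 2-fold, beside 43.0% of all genes compared that were 2-fold lower. With enzyme and granule UMIs left out its fold was 0.854, not past 2-fold. mt-Nd4l overlaps mt-Nd4, and mt-Atp8 overlaps mt-Atp6, so the counting of reads between the genes of each pair is uncertain.

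By complex, the mitochondrial UMIs of acinar cells came to 58.1% from complex IV, 17.8% from complex I, 15.6% from complex V and 8.55% from complex III. In fibroblasts these shares were 54.7%, 17.5%, 18.3% and 9.43%. The nuclear UMIs of acinar cells came to 32.4% from complex V, 30.8% from complex I, 23.5% from complex IV, 10.8% from complex III, 1.52% from complex II and 1.01% from complex I assembly factors. In fibroblasts complex IV held 27.4% of the nuclear sum and complex V 30.4%. Mural cells had the nuclear sum most weighted to complex IV among the nucleated classes, at 31.7% (30.9% to 32.6%). The intervals of myeloid cells at 30.5% and of Schwann cells at 28.9% overlapped theirs.

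The most abundant nuclear members by complex were Cox8a with 26267 UMIs, Atp5e of complex V with 25820, Uqcrh with 15154 and Ndufa2 of complex I with 12990. Single members were compared with fibroblasts by the fold of CPM after 5 CPM had been added, among genes with a mean of at least 20 CPM over the 2 classes. A gene was counted when it passed 2-fold, with the same count over all genes given beside it. The 5 comparisons share the fibroblasts, so they are given side by side only.

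In acinar cells, 79 of the 93 nuclear members passed the level filter, and 0 of them were 2-fold higher and 7 were 2-fold lower than in fibroblasts. Among all genes past the filter, 6.11% were 2-fold higher and 43.0% 2-fold lower. The median log2 fold was -0.56 for the nuclear members, -0.03 for the mitochondrial ones and -0.84 for all genes. The 7 were Cox6c and Cox8a of complex IV, Ndufa3, Ndufa5 and Ndufa7 of complex I, Uqcrh of complex III and Atp5mpl of complex V. Cox6c was at 207 CPM in acinar cells and 655 CPM in fibroblasts (3.104-fold lower), Ndufa3 at 70.7 and 189 CPM (2.56-fold lower) and Cox8a at 238 and 590 CPM (2.45-fold lower).

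Nuclear members above their fibroblast level in acinar cells numbered 9 of 79. Uqcrq, a small subunit of complex III, had the highest fold of these, at 240 CPM against 168 CPM (1.42-fold), followed by Atp5g1 at 331 CPM against 259 CPM (1.27-fold), Ndufa12, Uqcrc2 and Atp5o. With enzyme and granule UMIs left out, 8 of 80 nuclear members were 2-fold higher, against 17.1% of all genes, and 0 were 2-fold lower, against 17.0%. The 8 were Uqcrq (2.86-fold), Atp5g1 (2.58-fold), Ndufa12, Uqcrc2, Atp5o, Ndufs6, Ndufa10 and Ndufv1, the last a subunit of the NADH binding arm of complex I. On that scale 7 of the 13 mitochondrial genes were 2-fold higher, led by mt-Co3 (1.59 on the log2 scale), and the medians were 0.45 for nuclear members, 1.00 for mitochondrial ones and 0.14 for all genes. The direction of most members therefore depended on the denominator. The change of denominator scales all acinar levels alike, so it keeps most of the order of the folds by construction. Because 5 CPM are added, members with close folds can change places. Cox6c, Ndufa3, Ndufa5, Cox8a and Ndufa7 had the lowest folds among the nuclear members past the level filter. They lay below their fibroblast level on both scales, as did Uqcrh, Atp5mpl and Ndufaf2.

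In mural cells, 10 of 84 nuclear members were 2-fold higher than in fibroblasts, against 13.4% of all genes, and 0 were 2-fold lower, against 11.4%. The shift was broad and moderate, with 79 of the 84 above their fibroblast level and a median log2 fold of 0.62, against 0.11 for all genes. The 10 were Cox4i2, Ndufa4l2, Cox8a, Cox6b2 and Cox5a of complex IV, Uqcrc1 of complex III, Ndufa12 and the assembly factor Ndufaf3 of complex I, Sdhc of complex II and Atp5b, the catalytic beta subunit of ATP synthase. Ndufaf3 had only 19 UMIs in mural cells. Cox8a reached 1459 CPM in mural cells, against 590 CPM in fibroblasts. Cox6c, with the lowest acinar fold among the members past the level filter, was at 1224 CPM in mural cells. Ndufs1 had the lowest mural fold among the nuclear members past the filter, at 23.2 CPM (only 12 UMIs) against 33.5 CPM.

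In T cells, 3 of 80 nuclear members were 2-fold higher and 0 were 2-fold lower, against 17.7% and 24.1% of all genes. The 3 were Cox5a, an early assembling subunit of complex IV, at 285 CPM against 101 CPM (2.73-fold), Cox7b at 296 CPM against 143 CPM (2.03-fold) and Atp5g2 at 561 CPM against 277 CPM (2.01-fold). In B cells, 2 of 82 were 2-fold higher and 1 was 2-fold lower, against 19.3% and 24.0% of all genes. Cox5a was again among them, at 229 CPM, with Ndufs8 at 108 CPM against 44.0 CPM. The lower gene was Sdhc, at 25.5 CPM (only 17 UMIs) against 56.4 CPM, a fold of 0.496 and so barely past the limit. Of the mitochondrial genes, 0 of 13 passed 2-fold in T cells and 5 of 13 in B cells, which were mt-Atp8, mt-Nd5, mt-Nd2, mt-Nd4l and mt-Atp6. The median log2 fold of the nuclear members was 0.39 in T cells and 0.16 in B cells, beside 0.11 and 0.13 for all genes, and that of the mitochondrial members 0.57 and 0.94.

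**Figure D4:**
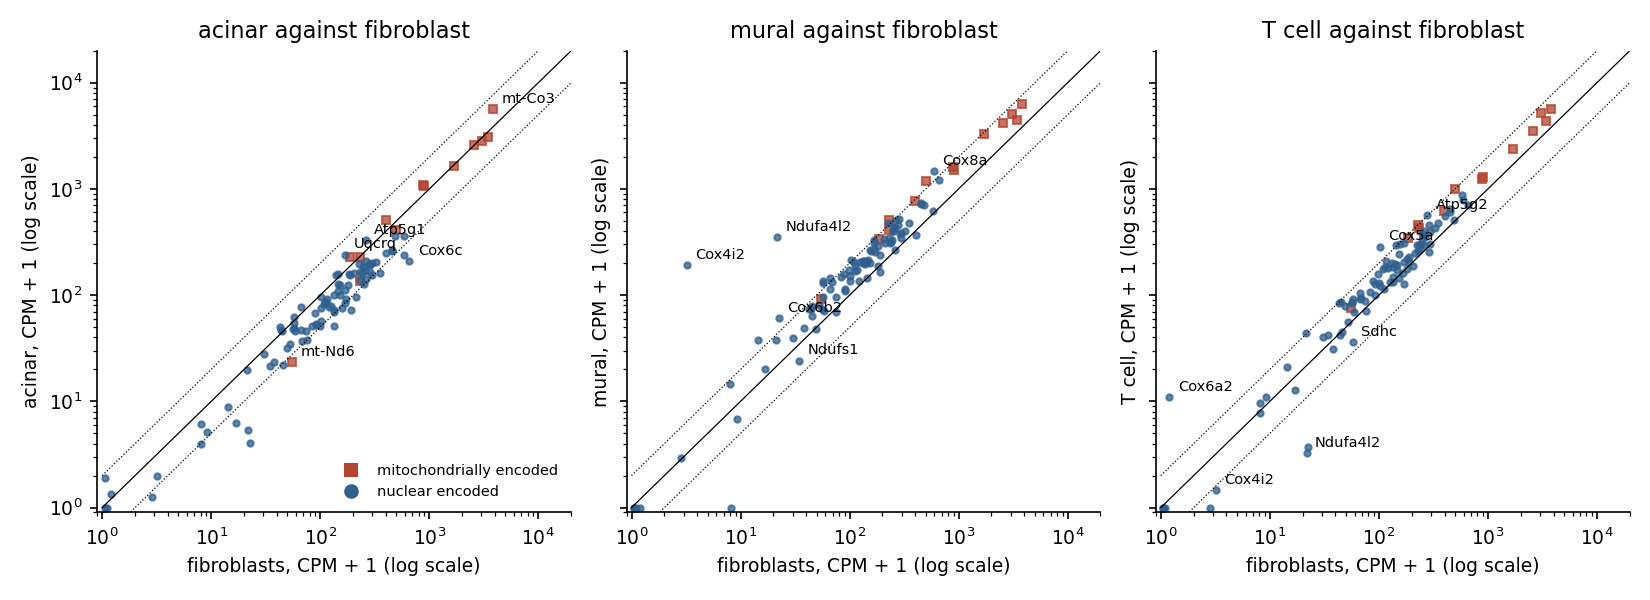
Level of each of the 106 members in acinar, mural and T cells (y axes) against fibroblasts (x axis), as CPM + 1 on log scales, with mitochondrially encoded genes as red squares and nuclear encoded genes as blue circles. The solid line marks equal levels and the dotted lines 2-fold, and Cox4i2 and Ndufa4l2 stand far above the line in mural cells, at 192 and 351 CPM against 2.20 and 20.7 CPM.

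The clearest pattern among single members was in 2 complex IV isoforms of mural cells. Cox4i2 (chr2:152754173-152765037, plus strand, GRCm38) encodes an alternative form of subunit 4, known for its response to low oxygen and for its use in smooth muscle of the lung. It held 192 CPM (156 to 234) in mural cells, 39.8 CPM (30.7 to 50.7) in endothelial cells, 2.20 CPM in fibroblasts and 0.974 CPM in acinar cells. In B cells, myeloid, Schwann and endocrine cells it had no UMI, which allows up to 4.49, 10.8, 27.9 and 23.1 CPM. Of the UMIs of Cox4i1 and Cox4i2 together, Cox4i2 made up 21.2% (17.6% to 25.2%) in mural cells, 6.13% in endothelial cells and 0.451% in fibroblasts. Cox4i1, the common form, was also the higher in mural cells, at 711 CPM against 485 CPM in fibroblasts.

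Ndufa4l2 (chr10:127514967-127517154, plus strand, GRCm38), a paralog of Ndufa4 known as a target of hypoxia-inducible factor, showed the same order. It held 351 CPM (301 to 406) in mural cells, 67.4 CPM in endothelial cells, 20.7 CPM in fibroblasts and 4.43 CPM in acinar cells. It made up 48.7% (43.5% to 53.9%) of the UMIs of the pair in mural cells, 12.6% in endothelial cells and 4.88% in fibroblasts. Ndufa4 itself was at 370 CPM in mural cells and 404 CPM in fibroblasts.

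The cells with a UMI gave the same picture after depth was equalized. Cox4i2 was detected in 42.6% of mural cells (34.7% to 50.8%, median depth 2070 UMIs) and 0.688% of fibroblasts (median depth 2677 UMIs). At 800 UMIs drawn from each cell, 17.4% (11.8% to 24.3%) of mural cells and 0.120% of fibroblasts still had one. Ndufa4l2 was detected in 54.8% of mural cells and 6.07% of fibroblasts, and in 30.3% and 2.15% after thinning. T cells (median depth 1750 UMIs), with 0.110% for Cox4i2 and 0.548% for Ndufa4l2, gave the share in a class of blood lineage for comparison, and the part of free RNA in these shares was not tested.

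Mural cells were further divided by whether UMIs of Rgs5, a pericyte marker, or of the smooth muscle genes were more numerous. In the 57 cells with more Rgs5, Ndufa4l2 was at 559 CPM (439 to 702) and Cox4i2 at 370 CPM (274 to 490). In the 94 with more smooth muscle UMIs they were at 274 CPM (224 to 332) and 121 CPM (88.8 to 162). Ndufa4 went the other way, with 174 CPM (110 to 261) and 438 CPM (374 to 510), so that in the cells with more Rgs5 the paralog was the more abundant of the pair. Cox8a and Cox6c were at 1247 and 900 CPM in the cells with more Rgs5 and at 1532 and 1345 CPM in the others. The 121 barcodes that passed both the endothelial and the mural gate, and entered neither class, held 283 CPM of Ndufa4l2, 162 CPM of Cox4i2 and 3665 CPM of Rgs5. Endothelial cells held 810 CPM of Rgs5 beside their 39.8 CPM of Cox4i2, and the part of mural RNA in the endothelial values was not tested.

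Other isoforms were rarer. Cox6b2, described as a testis form of subunit 6b, held 84.6 CPM (73.6 to 96.9) in the mesothelial and fibroblast cells, 61.7 CPM in red blood cells and 60.1 CPM in mural cells, where 9 of the 31 UMIs lay in 1 cell, against 21.5 CPM in fibroblasts and 3.098 CPM in acinar cells. It made up 17.6% of the Cox6b1 and Cox6b2 UMIs in the mesothelial and fibroblast cells, 13.7% in mural cells and 6.76% in fibroblasts. In red blood cells it made up 43.7% (33.9% to 53.8%), from 45 UMIs in 30 of 413 cells. In the mesothelial and fibroblast cells 30.5% of cells had a Cox6b2 UMI at a median depth of 4156 UMIs, and 4.55% after thinning. In fibroblasts these values were 6.40% and 1.74%. Scrublet marked 8.64% of the mesothelial and fibroblast barcodes as likely doublets (2 cells in 1 barcode), against 2.01% of fibroblasts.

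Cox6a2, the heart and skeletal muscle form of subunit 6a, had 121 UMIs in all and was concentrated in few barcodes. In myeloid cells 16 UMIs lay in 4 of 93 cells, with 7 in 1 of them, and in T cells 22 UMIs lay in 3 of 912 cells, with 9 in 1 of them. Barcodes that passed no gate held 57 of the 121 UMIs, and fibroblasts 4. Cox7a1, the muscle form of subunit 7a, was at 10.0 CPM in the mesothelial and fibroblast cells and 1.85 CPM in fibroblasts, where it made up 3.07% and 0.698% of the Cox7a1 and Cox7a2 UMIs. Cox7b2 had 21 UMIs, 10 of them in acinar cells and 1 in fibroblasts. Cox8b had 7 UMIs and Cox8c 1, too few to place.

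**Figure D5:**
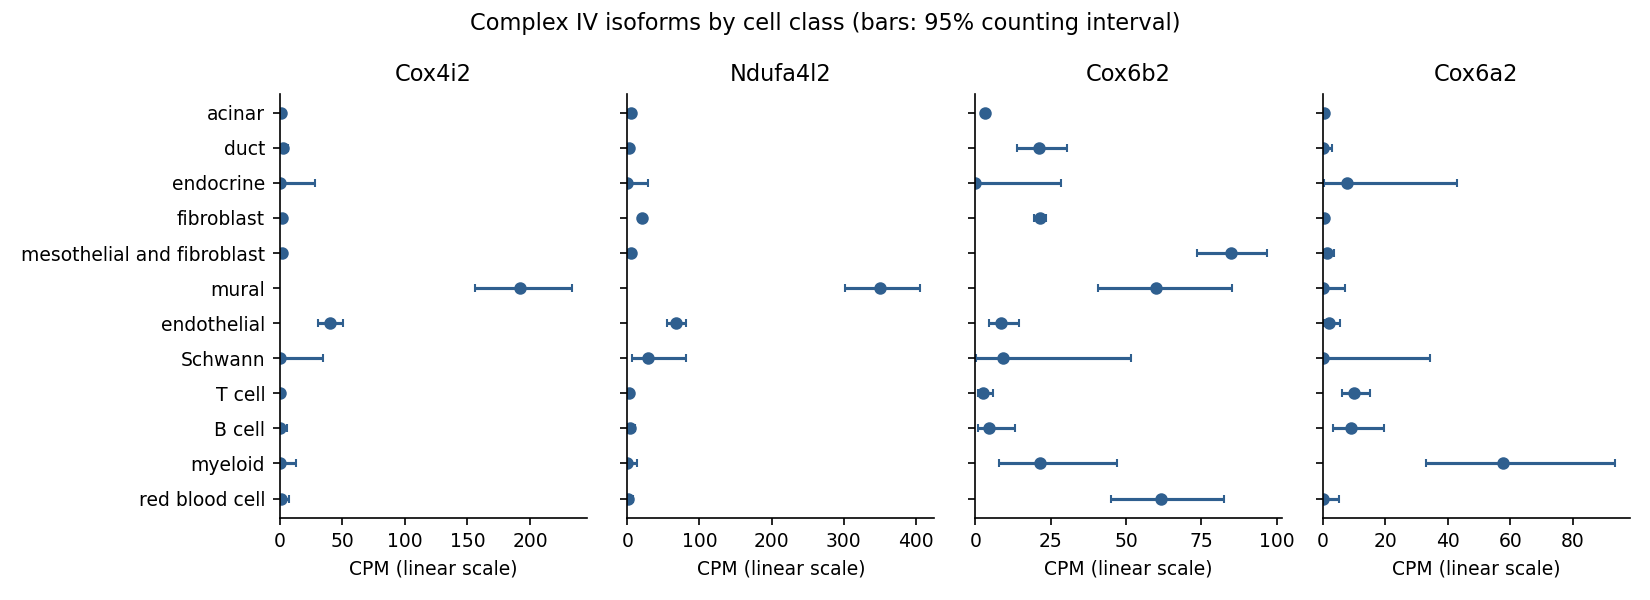
Level (x axes, CPM on linear scales that differ between panels) of the complex IV isoform genes Cox4i2, Ndufa4l2, Cox6b2 and Cox6a2 in 12 cell classes, with 95% counting intervals. Cox4i2 and Ndufa4l2 are highest in mural cells, Cox6b2 in the mesothelial and fibroblast cells and Cox6a2 in myeloid cells, where 16 UMIs from 4 cells carry the value.

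The 3 genes for the identical c subunit of ATP synthase were used differently by class. Atp5g1 was the most abundant of them in acinar cells, at 331 CPM, with Atp5g2 at 195 CPM and Atp5g3 at 186 CPM. In T cells Atp5g2 led at 561 CPM, with Atp5g3 at 303 CPM and Atp5g1 at 293 CPM, and in B cells Atp5g2 was at 536 CPM and Atp5g1 at 240 CPM. In fibroblasts the 3 were close, at 259, 277 and 245 CPM. The counts are of 3′ ends and were not divided by length.

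Complex II, the enzyme shared with the citric acid cycle, was a small part of the nuclear sum, with 1.52% in acinar cells, 1.64% in fibroblasts and 1.20% in T cells. Sdha, for the flavoprotein that oxidizes succinate, was at 37.2 CPM in acinar cells, 74.5 CPM in fibroblasts and 67.8 CPM in mural cells. Sdhb, for the iron-sulfur subunit, was at 35.8, 67.7 and 132 CPM in these classes. The membrane anchor genes Sdhc and Sdhd were at 48.3 and 22.7 CPM in acinar cells and at 56.4 and 37.0 CPM in fibroblasts. These levels have all UMIs in the denominator. With enzyme and granule UMIs left out, the acinar folds over fibroblasts were 1.02 for Sdha, 1.07 for Sdhb, 1.69 for Sdhc and 1.22 for Sdhd. In T cells Sdhc was at 34.9 CPM, the lowest fold among the nuclear members past the level filter there (1.54-fold lower), while Sdhb was at 92.1 CPM.

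Genes of the pathway outside the complexes were compared in the same way. Cycs, for cytochrome c, the carrier between complexes III and IV, was 3.43-fold higher in mural cells, at 250 CPM against 69.4 CPM in fibroblasts, and 2.63-fold higher in T cells, at 191 CPM. Its acinar fold was 1.31 over all UMIs and 2.60 with enzyme UMIs left out, beside 17.1% of all genes 2-fold higher on that scale. Of 6 regulators, 3 passed the level filter in acinar cells and none was past 2-fold, with or without enzyme UMIs. Over all UMIs 6.11% of all genes were 2-fold higher and 43.0% lower, and without enzyme UMIs 17.1% and 17.0%. In mural cells 2 of 5 regulators were 2-fold higher, beside 13.4% of all genes, Ppargc1b at 40.7 CPM and Esrra at 34.9 CPM against 3.60 and 12.5 CPM. The 6 regulators together had only 146 UMIs in mural cells. Nrf1 was 2-fold higher in T cells and in B cells, 1 of 3 regulators past the filter in each, at 120 and 115 CPM against 50.4 CPM, beside 17.7% and 19.3% of all genes. Of the 10 assembly genes of complexes III, IV and V, 2 passed the level filter in mural cells and 1 was 2-fold higher, beside 13.4% of all genes. It was Cox17, which carries copper to complex IV, at 200 CPM against 91.9 CPM. In T cells 2 passed the filter and both were 2-fold higher, beside 17.7% of all genes. They were Cox17 at 242 CPM and Cox10, which makes a precursor of heme a, at 47.2 CPM against 12.2 CPM. Only Cox17 passed the filter in acinar cells, with a fold of 1.09 over all UMIs. Its acinar fold was 2.17 with enzyme UMIs left out, beside 17.1% of all genes 2-fold higher. Of the 7 genes of mitochondrial transcription and RNA, 5 passed the level filter in T cells, 4 in B cells and 2 in acinar cells. In T cells and B cells 1 was 2-fold higher, beside 17.7% and 19.3% of all genes. It was Tfam, for a transcription factor that packages mitochondrial DNA, at 39.0 and 43.4 CPM against 16.6 CPM. In acinar cells neither of the 2 was past 2-fold, beside 6.11% of all genes higher and 43.0% lower. With enzyme UMIs left out 4 passed the filter and none was past 2-fold, beside 17.1% and 17.0% of all genes.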

How the data were processed

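The data were 1 droplet library with 3′ chemistry. Per the submitters' processing notes, Cell Ranger 7.1.0 and the build mm10 were used, and the authors deposited counts (raw UMIs of each gene in 11789 barcodes, not normalized). A barcode was kept if it held over 800 UMIs, under 100000 UMIs and a mitochondrial share below 15%. This limit bounds the mitochondrial sum itself, since the 13 mitochondrial members are all the genes with the mt- prefix.

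Cells were gated on marker UMIs, and a barcode that passed several gates entered no class, apart from the mesothelial and fibroblast cells. The floors of the gates and this exception were set after the marker counts had been seen. The acinar gate needed 20% of UMIs from 34 enzyme and granule genes and the fibroblast gate 1.5% from at least 2 of 6 genes. UMIs were summed per class and scaled to 1000000. Intervals are exact Poisson or Clopper-Pearson intervals for shares and ratios. The interval of the ratio of 1 class over that of another is a normal approximation on the log scale. With 1 library no test was made, and a call means a fold past 2 with a pseudocount of 5 CPM and a mean of at least 20 CPM. Scrublet (scanpy 1.11.5, expected rate 0.08) marked 537 barcodes (4.91%) as doublets, which were left in. Among the 440 mesothelial and fibroblast barcodes 38 were marked (8.64%). Ambient RNA was not removed. The fold step was tested on simulated data. Python 3.11.15, numpy 2.4.6, scipy 1.17.1 and pandas 2.3.3 were used. Coordinates are from GENCODE M21, in which the identifiers of all 106 members were found.

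Genes named were all mitochondrial members, the Sdh genes, the most abundant member by complex, isoform families, the 5 largest and 5 smallest nuclear folds of a main class and lists of pathway genes. Members past 2-fold were also named. The members and lists were chosen with earlier results of these data known. The alternatives were other UMI limits (among them the upper limit of 10000 UMIs in the study's methods), other mitochondrial and gate limits, removal of doublets, other denominators and weights, another pseudocount, no level filter and thinning. Leaving out acinar groups was added after the data were seen.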

Additional observations from a re-analysis of the deposited data

Results flagged for a closer look

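The barcodes at or over 15% mitochondrial UMIs entered no comparison, and among the 76 of them between the UMI limits the mitochondrial genes held 30.3% of UMIs and the nuclear members 0.577%, a ratio of 52.5 (48.6 to 56.8) that stood far above the 0.775 to 2.24 of the classes. They were set apart because this signal lies in barcodes outside the comparisons, and the limit that left them out is set on the same genes. No gate was passed by 62 of them, 12 passed the fibroblast gate, 1 the acinar gate and 1 the endothelial gate. Their median depth was 1326 UMIs and Malat1 took 0.630% of their UMIs.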

How the results depend on the processing

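The acinar ratio stayed above that of fibroblasts under all alternatives run, although the medians of cells, at 1.23 and 1.22, were close. It was 1.65 times as high, and 1.19 times with an upper limit of 10000 UMIs, 1.52 with a mitochondrial limit of 5%, 1.63 with no mitochondrial limit, 1.53 with gate floors doubled, 1.35 as a mean of per-cell values, 1.76 without acinar barcodes with few Malat1 UMIs and 1.20 without those over 10000 UMIs. The T cell ratio was 1.12 times that of fibroblasts, and 1.08 with a lower limit of 1500 UMIs, 1.10 with a mitochondrial limit of 5%, 1.11 with no limit, 1.10 with gate floors doubled and 1.21 per cell. The cause was not tested. Nuclear members 2-fold higher and lower in acinar cells numbered 0 and 7 of 79, beside 6.11% and 43.0% of all genes. Without enzyme UMIs they numbered 8 and 0 of 80, as that denominator's construction sets, beside 17.1% and 17.0%. The lower count lay between 5 and 10 under the other alternatives. The share of all genes is not given for those, so that range is not a result about the members. Of the other 464 values, 268 stayed within their counting interval and 19 moved by over 1.5 times, 13 of them with the enzyme UMIs left out. Cox6a2 in myeloid cells fell to 25.7 CPM with gate floors doubled. The duct ratio was 3.84 with an upper limit of 10000 UMIs, which left out most duct cells. No paired analysis was possible because there was 1 library. The mural, duct and endocrine values rest on 155, 47 and 9 cells.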

Other observations

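Glycolysis genes did not order the classes as the mitochondrial to nuclear ratio did. Over all UMIs, the 15 genes summed to 387 CPM in acinar cells, 1036 CPM in fibroblasts, 1785 CPM in T cells and 2233 CPM in myeloid cells. Myeloid cells, with one of the lowest mitochondrial to nuclear ratios, thus held the highest glycolysis sum. By nuclear share of the respiratory chain over all UMIs, acinar cells (0.947%) also lay below fibroblasts (1.44%), with myeloid cells (1.69%) and T cells (1.89%) above both. Leaving out enzyme UMIs took this share to 1.95% in acinar cells, 1.46% in fibroblasts, 1.71% in myeloid cells and 1.92% in T cells. Acinar cells then lay above fibroblasts, so this likeness depended on the denominator. In acinar cells 5 of 10 glycolysis genes past the level filter were 2-fold lower than in fibroblasts, and 3 of 11 with enzyme UMIs left out, beside 43.0% and 17.0% of all genes. Aldoa was at 31.2 CPM in acinar cells against 132 CPM and Gapdh at 90.0 CPM against 250 CPM. In T cells 5 of 12 were 2-fold higher, among them Eno1 (3.89-fold), Ldha (2.56-fold) and Gapdh (2.40-fold), and Hk2 was 2-fold lower, beside 17.7% and 24.1% of all genes.

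With all UMIs in the denominator, the 12 citric acid cycle genes summed to 537 CPM in acinar cells and 597 CPM in fibroblasts. On that scale 1 of 9, Dlst, was 2-fold lower in acinar cells, beside 43.0% of all genes. With enzyme UMIs left out, 2 of 12 were 2-fold higher, Suclg1 (3.26-fold) and Suclg2 (3.09-fold), and 0 were 2-fold lower, beside 17.1% and 17.0% of all genes. Suclg2, for a subunit of the GTP-forming succinyl-CoA ligase, had the most UMIs of these in acinar cells, at 106 CPM against 66.8 CPM in fibroblasts.

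Ucp2, of the uncoupling protein family of the inner mitochondrial membrane, was at 11.3 CPM in fibroblasts and 9.69 CPM in mural cells, and at 62.5 CPM in acinar cells, 237 CPM in T cells, 258 CPM in red blood cells, 379 CPM in B cells and 425 CPM in myeloid cells. Ucp1, the form of brown fat, had no UMI in the kept barcodes, and Ucp3 had 7.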
